A study of Mus musculus with 18 samples.

Results

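Cxcl1, Cxcl2, Cxcl5, Cxcl12, Cxcl14 and Cxcl16, 6 secreted or membrane-bound CXC chemokines, were examined in primary mouse fibroblasts, out of 24445 gene symbols in the expression table and 12599 genes that passed the filter for testing. All 6 passed that filter, at least 1 FPKM in at least 2 libraries, but Cxcl2 lay below 1 FPKM in some libraries and passed through the others. The 6 genes were chosen by name with earlier results of these data in view, and the values that chose them include the difference of Cxcl1 between the 2 Lmna guides in Pro/Pro;Cas9/+ cells. That difference is therefore described below without a test. Cxcl1, Cxcl2 and Cxcl5 are called the neutrophil chemokines here, Cxcl12 and Cxcl14 as the homeostatic ones, and Cxcl16 as the transmembrane one.

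The fibroblasts were grown from tail tips of 2-month-old mice, used at passage 5, and belonged to 3 genotypes: Pro/Pro;Cas9/+ (homozygous for the progeria allele of Lmna, with Cas9), Pro/+; +/+ (heterozygous, without Cas9) and +/+;Cas9/+ (wild-type Lmna, with Cas9). Cells of each mouse received gLmna-1 or gLmna-2, guide RNAs against Lmna, or gMock, a guide with no match in the genome. In all 9 groups the guide came on a lentivirus with an mCherry reporter, added by spinning with polybrene at 4 µg/ml, and more than 80% of the cells were mCherry-positive, without sorting or selection. There were 2 mice per genotype and 18 libraries, so each group holds 1 library from each of 2 mice, named replicate 1 and replicate 2, and the same mouse carries the same number in all 3 treatments. The driver of Cas9 is not given in the sources used here, the heterozygous genotype differs from the others in both Cas9 and the Pro allele, and the name of heterozygous replicate 2 leaves unclear whether it is 1 mouse or a pool of 2.

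CXC chemokines are small secreted proteins named for a pair of cysteines split by another residue. Cxcl1, Cxcl2 and Cxcl5 act on the receptor Cxcr2 and draw neutrophils out of the blood, and stromal cells make them when interleukin 1, tumour necrosis factor or interleukin 17 activates NF-kB. Cxcl12 holds stem cells and leukocytes in place through Cxcr4 and is bound and removed by Ackr3, Cxcl14 is made constantly in skin, and Cxcl16 is made as a membrane protein that the protease Adam10 can release and that binds Cxcr6. The messages of the neutrophil chemokines are short-lived, and AUUUA motifs in their 3′ untranslated regions are bound by decay factors such as Zfp36.

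The promoters are shown first because those of Cxcl1 and Cxcl2 carry a match to the NF-kB consensus. NF-kB is known to induce the neutrophil chemokines. The choice of genes did not use this feature, but the motifs were chosen after values had been seen. Cxcl12 is printed as the homeostatic comparison, and no promoter was at hand for Cxcl5 or Cxcl16. RefSeq windows of 300 bases (GRCm38.p6), from 250 before the start site to 49 after it with the first transcribed base counted as 0, were at hand for 4 of the 6 genes: Cxcl1 (chr5:90890995-90891294, plus strand), Cxcl2 (chr5:90903649-90903948, plus strand), Cxcl12 (chr6:117168285-117168584, plus strand) and Cxcl14 (chr13:56296502-56296801, minus strand). The capitals mark matches to the NF-kB consensus, searched on both strands.
Cxcl1: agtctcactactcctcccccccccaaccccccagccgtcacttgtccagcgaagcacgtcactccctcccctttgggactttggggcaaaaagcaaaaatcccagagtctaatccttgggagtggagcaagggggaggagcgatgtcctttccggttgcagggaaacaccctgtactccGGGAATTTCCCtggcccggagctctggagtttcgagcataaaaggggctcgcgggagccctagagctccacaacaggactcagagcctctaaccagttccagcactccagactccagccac
Cxcl2: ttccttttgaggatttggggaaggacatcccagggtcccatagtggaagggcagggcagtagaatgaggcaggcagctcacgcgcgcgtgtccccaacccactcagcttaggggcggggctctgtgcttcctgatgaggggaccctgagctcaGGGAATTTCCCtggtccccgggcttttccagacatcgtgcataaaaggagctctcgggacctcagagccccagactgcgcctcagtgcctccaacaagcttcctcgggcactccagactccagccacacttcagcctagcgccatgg
Cxcl12: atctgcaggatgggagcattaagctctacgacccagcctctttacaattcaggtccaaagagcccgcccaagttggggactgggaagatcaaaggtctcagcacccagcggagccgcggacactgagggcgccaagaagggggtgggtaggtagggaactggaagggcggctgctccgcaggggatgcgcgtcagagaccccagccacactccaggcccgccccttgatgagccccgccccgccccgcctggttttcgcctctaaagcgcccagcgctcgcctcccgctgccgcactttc

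Cxcl1 and Cxcl2 held the same 11-base run, GGGAATTTCCC, at −71 to −61 and at −97 to −87. Each run counts as 2 overlapping matches, 1 on each strand. Cxcl12 and Cxcl14 held no match, and 8.46% of all 32851 promoter windows held at least 1. The GC box GGGCGG, searched on both strands, was found 5 times in Cxcl12, 3 times in Cxcl14, once in Cxcl2 and not in Cxcl1, and 35.7% of all windows held it. AP-1 (TGANTCA) and TATA (TATAA) had no match in these 4 windows on either strand, against 7.81% and 24.9% of all windows. TATA was searched only as that exact string, so near forms, such as the cataaaag in the Cxcl1 and Cxcl2 windows, were not counted. A match here is a match of letters and not a measured binding site.

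The 3′ untranslated regions of Cxcl1 and Cxcl2 were rich in the AUUUA motif, and that of Cxcl5 less so. The AUUUA motif occurred 7 times in the 592 bases of Cxcl1 and 11 times in the 734 bases of Cxcl2. Of 17933 annotated genes, 0.496% had as many motifs per kilobase as Cxcl1 or more, and 0.223% as many as Cxcl2 or more. Cxcl5 held 5 in 1111 bases (4.5 per kilobase, 9.37% of genes at or above), Cxcl12 held 4 in 1487 bases (2.69 per kilobase, 24.6%), Cxcl16 held 2 in 1421 bases and Cxcl14 held none in 1149 bases. Among other CXC ligands, Cxcl3 had 7.75 per kilobase (2.19% of genes at or above) and Ppbp 1.52 (44.5%).

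The 3 neutrophil chemokines lie on the plus strand of chromosome 5 (GRCm38) within a run of 7 CXC ligand genes that spans 147 kb. In order these are Cxcl5 (90759298 to 90761625), Ppbp, Pf4, Cxcl3, Cxcl15, Cxcl1 (90891245 to 90893121) and Cxcl2 (90903899 to 90905938). Cxcl12 lies on the plus strand of chromosome 6 (117168535 to 117181368 over its transcripts), Cxcl14 on the minus strand of chromosome 13 (56288643 to 56296551) and Cxcl16 on the minus strand of chromosome 11 (70454234 to 70459984). The exons of 5 of the 6 genes overlapped no exon of another gene. Those of Cxcl16 shared 552 bases with Zmynd15 on the opposite strand, which averaged 0.276 FPKM, and whether reads were counted by strand is not given in the sources used here.

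Levels are in FPKM, reads scaled to transcript length and library size, for the RefSeq transcript with the highest mean per symbol. The libraries held 22424410 to 42622051 reads. The cells expressed fibroblast genes strongly, with a summed level of 9979 to 14210 FPKM over 10 markers. Thy1, 1 of the 10, was lower under gMock in Pro/Pro;Cas9/+ cells (41.9 and 34.6 FPKM) than in +/+;Cas9/+ cells (461 and 301 FPKM). The log2 difference was −3.26 (SE 0.37, adjusted p = 0.0422 by limma). Pdgfra, also among the 10, was lower there too, at 8.93 and 8.93 FPKM against 22.3 and 20.1 FPKM. The Thy1 call was lost in 8 of 10 alternatives and the Pdgfra call in 6. With gLmna-2 in Pro/Pro;Cas9/+ cells Thy1 rose to 157.7 and 85.6 FPKM, a call lost in 6 of 13 alternatives. All 13 macrophage markers were measured too, with a sum of 74.5 to 1643 FPKM that was highest in Pro/Pro;Cas9/+ cells with gLmna-2, replicate 1. Of 8 neutrophil markers only S100a8 and Camp passed the filter, S100a9 had at most 0.0845 FPKM, and the sum was 1.46 to 17.0 FPKM. The markers of lymphocytes summed to at most 0.611 FPKM, those of endothelium to 2.50 and those of keratinocytes to 2.89. Those of skeletal muscle summed to 7.10 to 66.3 FPKM, with Acta1 and Des passing the filter and the other 3 of 5 below 1 FPKM in all libraries. The targeted gene, Lmna, was at 249 and 217 FPKM with gLmna-1, at 247.2 and 310.0 with gLmna-2 and at 246 and 369.8 with gMock in Pro/Pro;Cas9/+ replicates 1 and 2. It lay between 195.7 and 381.4 FPKM in the other libraries, and a cut by Cas9 need not lower the message, so these values do not check the labels.

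Cxcl14 was the most abundant of the 6 genes in 17 of 18 libraries, Cxcl16 was the fifth and Cxcl2 the sixth in all 18. Cxcl14 ranged from 102 to 635 FPKM (median 488), Cxcl12 from 41.8 to 266 (median 117), Cxcl5 from 24.99 to 428 (median 118) and Cxcl1 from 19.5 to 122 (median 60.1). Cxcl16 ranged from 2.61 to 8.05 FPKM (median 4.39) and Cxcl2 from 0.281 to 4.16 (median 1.16). Cxcl12 was second in 12 libraries and Cxcl5 in 5, so these neighbours changed places between libraries. The exception for Cxcl14 was Pro/Pro;Cas9/+ replicate 2 with gLmna-1, where Cxcl5 at 311 FPKM stood just above Cxcl14 at 300.2 FPKM.

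**Figure D1:**
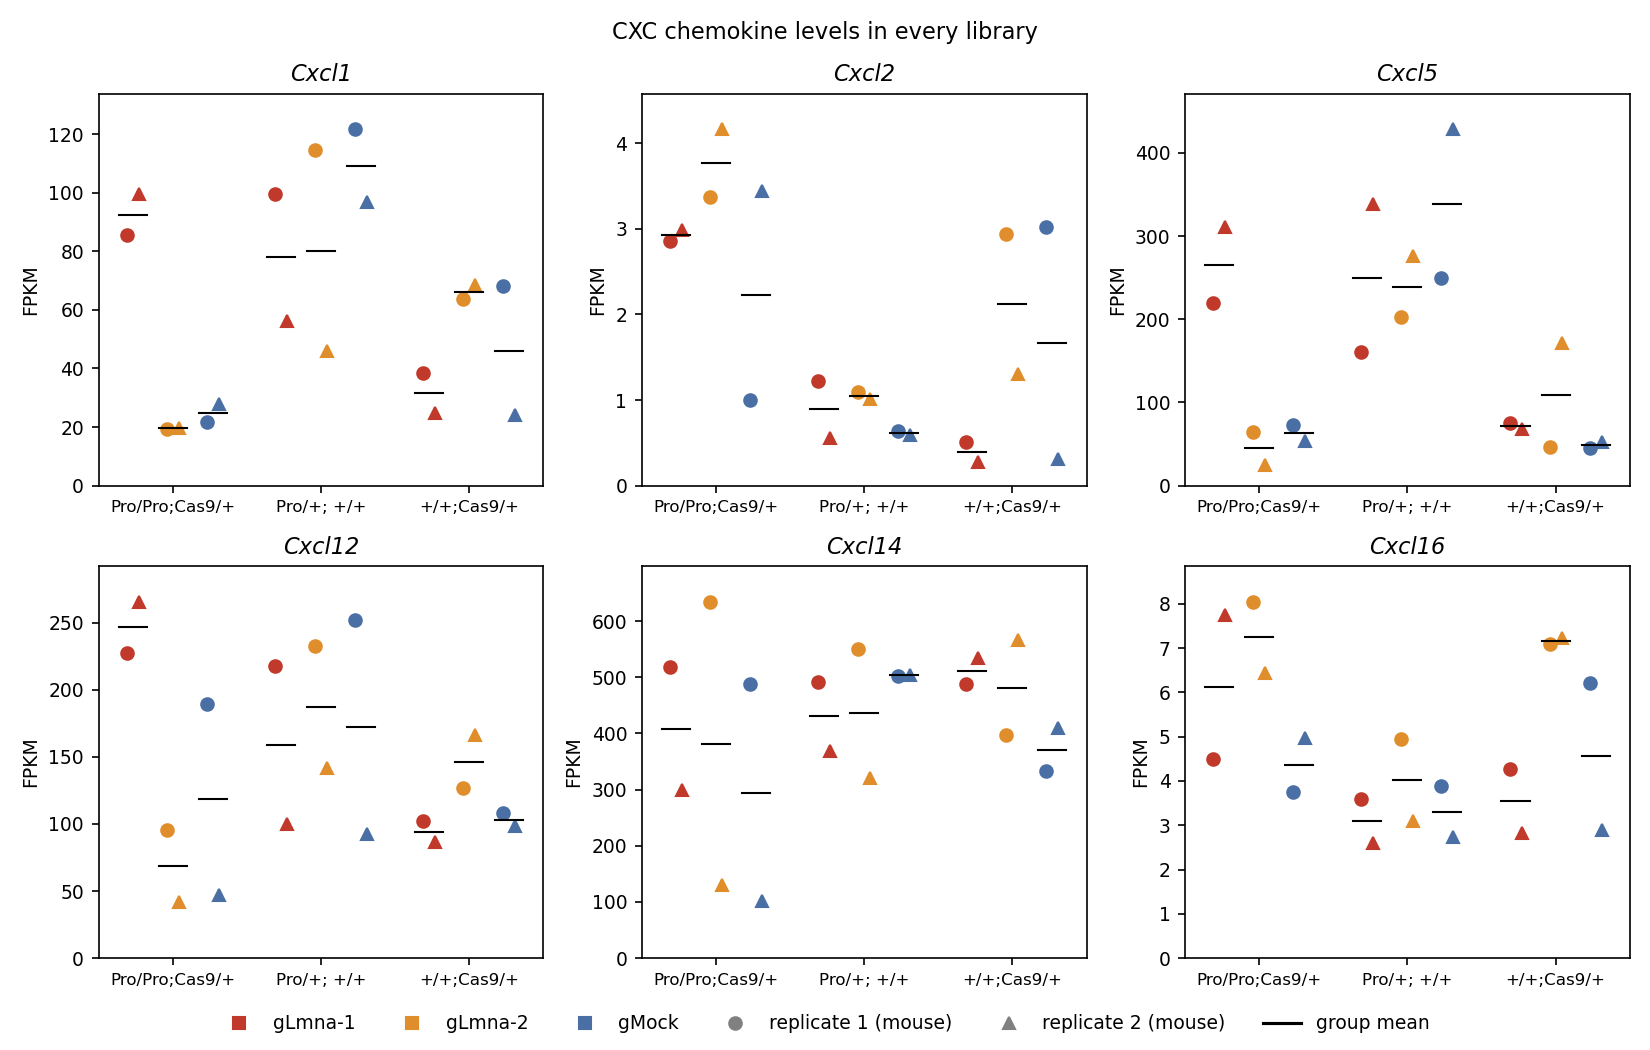
FPKM of the 6 chemokines (y axes from 0, one panel per gene) in every library, grouped by genotype and coloured by guide; circles and triangles are the mice of a genotype and the bar is the mean of a group. Cxcl1 and Cxcl5 with gLmna-1 in Pro/Pro;Cas9/+ cells, at 85.6 and 99.4 FPKM and at 219.7 and 311 FPKM, lay above the other libraries of that genotype.

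The neutrophil chemokines were compared between guides within each genotype to see whether cutting Lmna went with a changed chemokine output. Cxcl1 was the only one of the 6 that passed the test for a guide. In Pro/Pro;Cas9/+ cells it was at 85.6 and 99.4 FPKM with gLmna-1, at 19.5 and 19.6 with gLmna-2 and at 21.8 and 27.8 with gMock (replicates 1 and 2). Both gLmna-1 libraries were high, and the gLmna-2 and gMock libraries were low and close to each other. With gLmna-1 Cxcl1 rose 3.93-fold and 3.57-fold over gMock in the 2 mice, a log2 change of 1.86 (SE 0.31, adjusted p = 0.039, limma with the mouse as a block). Of all genes tested, 0.976% passed in this comparison, 76 higher and 47 lower. The comparison shares its gLmna-1 libraries with the difference between guides that was known when the genes were chosen, so it is not independent of that choice. Its call was lost without the mouse block (adjusted p = 0.468), with the libraries of this genotype alone (0.334), without a filter on low values (0.0781), and without any 1 of the 6 libraries of this genotype except gLmna-1 of replicate 1 (0.0652 to 0.384), while the log2 change stayed between 1.75 and 1.98.

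Cxcl5 in the same cells was at 219.7 and 311 FPKM with gLmna-1, at 64.4 and 24.99 with gLmna-2 and at 72.5 and 53.5 with gMock. The gLmna-1 libraries again lay above the others in both mice. Against gMock the level with gLmna-1 was 3.03-fold and 5.8-fold higher, a log2 change of 2.05 (SE 0.48) that did not pass the test over all genes (adjusted p = 0.0774). With 1 library left out the log2 change ranged from 1.36, without gLmna-1 of replicate 2 (adjusted p = 0.194), to 2.74, without gLmna-1 of replicate 1 (adjusted p = 0.0161), and the adjusted p reached 0.525 without gMock of replicate 2. Leaving out a gLmna-1 library leaves 1 mouse with that guide. With gLmna-2 against gMock the log2 changes were −0.32 (SE 0.31, adjusted p = 0.867) for Cxcl1 and −0.62 (SE 0.48, adjusted p = 0.80) for Cxcl5, and 0.357% of all genes passed there.

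Cxcl2 stayed low, with 10 to 114 reads per library. It was at 2.86 and 2.99 FPKM with gLmna-1, at 3.38 and 4.16 with gLmna-2 and at 1.00 and 3.45 with gMock in Pro/Pro;Cas9/+ cells. The groups overlapped for gLmna-1 and gMock, and the log2 change was 0.40 (SE 0.33, adjusted p = 0.598). Its promoter carries the NF-kB run shown above for Cxcl1, and its median level was 1.16 FPKM beside 60.1 for Cxcl1.

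Between the guides in Pro/Pro;Cas9/+ cells, given without a test, Cxcl1 with gLmna-2 was 0.228-fold and 0.198-fold of gLmna-1, Cxcl5 was 0.293-fold and 0.0805-fold, and Cxcl12 was 0.419-fold and 0.157-fold. Cxcl2 was at 1.18-fold and 1.39-fold. Cxcl14 and Cxcl16 differed in opposite directions in the 2 mice, Cxcl14 at 1.23-fold and 0.432-fold and Cxcl16 at 1.79-fold and 0.83-fold. Cxcl1, Cxcl5 and Cxcl12 were thus lower with gLmna-2 in both mice, across the line between neutrophil and homeostatic chemokines.

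In the other genotypes none of the 6 genes passed for either guide. In Pro/+; +/+ cells, which have no Cas9, Cxcl1 was at 99.6 and 56.4 FPKM with gLmna-1, at 114 and 45.9 with gLmna-2 and at 122 and 96.9 with gMock. Cxcl5 was at 161 and 338, at 202 and 276, and at 249 and 428 FPKM in the same order. Replicate 1 was higher for Cxcl1 and replicate 2 for Cxcl5 in each of these groups. In +/+;Cas9/+ cells Cxcl1 was at 38.3 and 24.7 FPKM with gLmna-1, at 63.8 and 68.3 with gLmna-2 and at 68.0 and 24.1 with gMock. Cxcl5 was at 75.1 and 67.7, at 46.4 and 171, and at 45.0 and 52.9 FPKM in the same order. In these wild-type cells the gLmna-1 libraries were thus not the high ones for Cxcl1. Cxcl2 in +/+;Cas9/+ cells was at 0.511 and 0.281 FPKM with gLmna-1, at 2.94 and 1.30 with gLmna-2 and at 3.02 and 0.315 with gMock, a 9.61-fold gap between the 2 mice under gMock.

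By limma, 0 of the 6 genes passed for gLmna-1 against gMock in Pro/+; +/+ and in +/+;Cas9/+ cells, where 0% and 0.691% of all genes passed. For gLmna-2 against gMock in the same cells it was 0 of 6 as well, beside 0% and 0.564% of all genes. For gLmna-2 against gLmna-1 it was 0 of 6, beside 0% of all genes in both genotypes. At an unadjusted p under 0.05 the members counted 0, 0, 0, 1, 0 and 3 in these 6 comparisons, beside 1.37%, 8.61%, 4.49%, 7.56%, 2.11% and 8.01% of all genes at that cut, and limma voom on the recovered reads called 0 in each. The 3 were Cxcl1, Cxcl2 and Cxcl16 for gLmna-2 against gLmna-1 in +/+;Cas9/+ cells, all positive, with log2 differences of 1.08, 1.12 and 0.86 and adjusted p of 0.439, 0.439 and 0.43.

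The guide effects were then compared between genotypes. The gLmna-1 effect on Cxcl1 was larger in Pro/Pro;Cas9/+ than in Pro/+; +/+ cells by 2.39 on the log2 scale (SE 0.44, adjusted p = 0.31) and larger than in +/+;Cas9/+ cells by 2.25 (SE 0.44, adjusted p = 0.238). For Cxcl5 the differences were 2.54 (SE 0.68, adjusted p = 0.365) and 1.51 (SE 0.68, adjusted p = 0.854). None of the 6 genes passed in these 2 comparisons, where 0% and 0.0317% of all genes did, so a gLmna-1 effect on Cxcl1 particular to Pro/Pro;Cas9/+ cells was not shown. For gLmna-2 the corresponding counts were 0 of 6 genes in both, beside 0% of all genes in both. At an unadjusted p under 0.05 the members counted 4 and 3 for gLmna-1 and 0 and 1 for gLmna-2, beside 8.64%, 5.75%, 7.74% and 3.51% of all genes at that cut, and voom called 0. Without the gLmna-1 library of replicate 1, which leaves 1 mouse with that guide, 4 of the 6 passed for gLmna-1 against Pro/+; +/+ cells and 1 against +/+;Cas9/+ cells, and the counts over all 12599 genes in the same fits were 806 and 50, in place of 0 and 4.

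**Figure D2:**
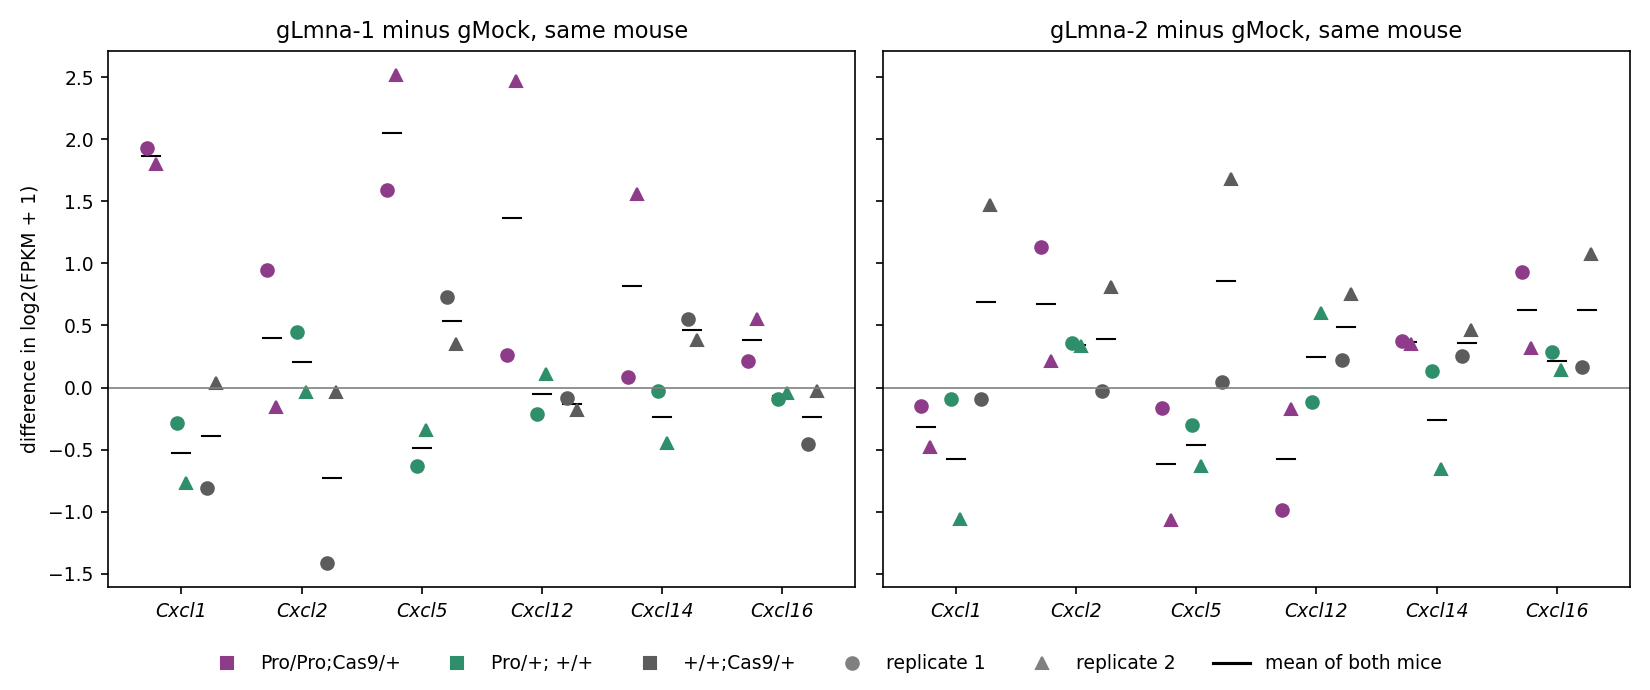
Difference in log2(FPKM + 1) between each Lmna guide and gMock in the same mouse (y axis), for the 6 chemokines and 3 genotypes; circles and triangles are the mice and the bar is their mean. With gLmna-1 in Pro/Pro;Cas9/+ cells Cxcl1 stood at 1.93 and 1.80 and Cxcl5 at 1.59 and 2.52, while Cxcl12 stood at 0.27 and 2.46.

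Cxcl12, the ligand of Cxcr4, was at 228 and 266 FPKM with gLmna-1, at 95.3 and 41.8 with gLmna-2 and at 189 and 47.3 with gMock in Pro/Pro;Cas9/+ cells. The gLmna-1 libraries were the highest, but replicate 1 was already high under gMock. The log2 change with gLmna-1 was therefore 0.27 in replicate 1 and 2.46 in replicate 2, with a mean of 1.36 (SE 0.41, adjusted p = 0.139). Cxcl14 in these cells was at 517 and 300.2 FPKM with gLmna-1, at 635 and 129.6 with gLmna-2 and at 488 and 102 with gMock. Replicate 1 was higher than replicate 2 in every treatment, and the log2 change with gLmna-1 was 0.82 (SE 0.32, adjusted p = 0.231), 0.08 in replicate 1 and 1.56 in replicate 2. Without the gLmna-1 library of replicate 1, which leaves replicate 2 as the only mouse with that guide, Cxcl12 (2.26, adjusted p = 0.00405) and Cxcl14 (1.56, adjusted p = 0.00447) passed, as did 1773 of all 12599 genes. Without that of replicate 2 the log2 changes were 0.47 for Cxcl12 (adjusted p = 0.378) and 0.08 for Cxcl14 (adjusted p = 0.858), and without gMock of replicate 2 they were 0.61 (adjusted p = 0.746) and 0.46 (adjusted p = 0.816).

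In the other genotypes Cxcl12 was at 217 and 100.3 FPKM with gLmna-1, at 233 and 142 with gLmna-2 and at 252 and 92.8 with gMock in Pro/+; +/+ cells. It was at 102 and 86.4, at 126 and 166, and at 108 and 98.2 FPKM in the same order in +/+;Cas9/+ cells. Cxcl14 lay between 321 and 551 FPKM in the 6 Pro/+; +/+ libraries and between 332 and 566 FPKM in the 6 +/+;Cas9/+ libraries. Both groups of Cxcl14 values overlapped and lay above the 102 and 129.6 FPKM of Pro/Pro;Cas9/+ replicate 2 with gMock and gLmna-2.

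The table lists parts of transcripts, which separates the ends of Cxcl12 on chromosome 6 (mm10). The alpha form ends in a part at 117173583 to 117175069, the beta form in one at 117178599 to 117181368, and the coding end of the gamma form lies at 117176086 to 117176179. The gamma form shares most of the beta end, so reads there belong to both. Per length, the alpha end was at 45.0 to 277 FPKM and the beta end at 10.7 to 110.0 FPKM, and the gamma coding end was at 0.48 to 10.9 FPKM on 1 to 39 reads. The ratio of the beta end to the alpha end was 0.23 to 0.394 in the 6 Pro/Pro;Cas9/+ libraries, 0.336 to 0.475 in the 6 Pro/+; +/+ libraries and 0.209 to 0.263 in the 6 +/+;Cas9/+ libraries. The Pro/+; +/+ and +/+;Cas9/+ ranges did not overlap, with 2 mice behind each.

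Within Pro/Pro;Cas9/+ cells the beta to alpha ratio was 0.394 and 0.383 with gLmna-1, 0.239 and 0.238 with gLmna-2 and 0.373 and 0.23 with gMock. The 3 libraries with a ratio above 0.37 were those in which the exons shared by the Cxcl12 forms stood above 260 FPKM, at 295, 397 and 263 FPKM. The other 3 stood at 110.4, 55.3 and 58.1 FPKM. Pro/+; +/+ replicate 2 had ratios of 0.447 to 0.475 at 139 to 220.2 FPKM of the shared exons, so a high ratio did not always go with a high level. The ratio was chosen after the values had been seen and has no test.

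**Figure D3:**
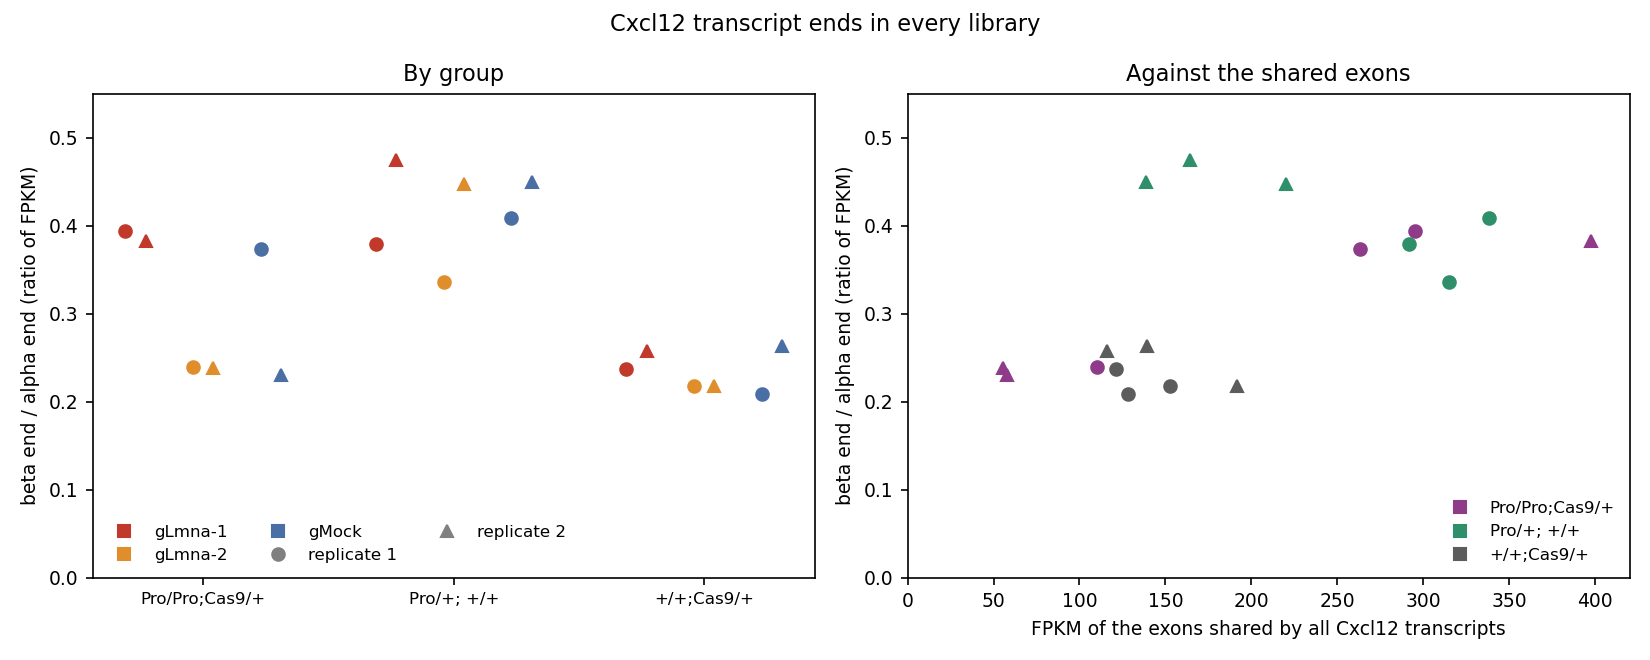
Ratio of the FPKM of the beta end to that of the alpha end of Cxcl12 in every library, by group (left) and against the FPKM of the exons that its forms share (right); circles and triangles are the mice of a genotype. The ratio lay between 0.336 and 0.475 in Pro/+; +/+ cells and between 0.209 and 0.263 in +/+;Cas9/+ cells.

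The parts of the other genes were read to see whether 1 part carried a change. With gLmna-1 against gMock in Pro/Pro;Cas9/+ cells, the parts of Cxcl1 with at least 20 reads in both libraries gave log2 ratios of 1.71 to 2.14 in replicate 1 (4 parts) and 1.78 to 2.01 in replicate 2 (3 parts). Those of Cxcl5 gave 0.95 to 1.71 in replicate 1 (6 parts) and 2.46 to 2.67 in replicate 2 (5 parts), and those of Cxcl14 gave 0.02 to 0.15 and 1.23 to 1.63 (6 parts each). For Cxcl5 and Cxcl14 the ranges of the 2 mice did not overlap, so the gap between mice was not that of a single part.

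Cxcl16, the transmembrane ligand of Cxcr6, was at 4.50 and 7.76 FPKM with gLmna-1, at 8.05 and 6.44 with gLmna-2 and at 3.76 and 4.97 with gMock in Pro/Pro;Cas9/+ cells. The +/+;Cas9/+ cells had 4.27 and 2.83, then 7.10 and 7.23, and 6.21 and 2.90 FPKM in the same order, and in Pro/+; +/+ cells it lay between 2.61 and 4.96 FPKM. The gLmna-2 libraries lay above the gMock libraries of the same genotype in both Cas9 genotypes. The share of all genes with such a separation is not given. The log2 change with gLmna-2 was 0.62 (SE 0.23) in each of them, and neither passed (adjusted p = 0.383 in Pro/Pro;Cas9/+ and 0.592 in +/+;Cas9/+ cells). In Pro/+; +/+ cells, without Cas9, Cxcl16 with gLmna-2 was also higher in both mice, at 1.27-fold and 1.14-fold of gMock. The 2 groups overlapped there, and the log2 change was 0.21 (SE 0.23, adjusted p = 0.996 by limma).

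Macrophage markers moved with Cxcl16. The summed level of the 13 markers was 499 and 1262 FPKM with gLmna-1, 1643 and 842 with gLmna-2 and 637 and 786 with gMock in Pro/Pro;Cas9/+ cells, 79.1 to 643 in Pro/+; +/+ cells and 74.5 to 449 in +/+;Cas9/+ cells. Across the 18 libraries Cxcl16 had a Pearson r of 0.74 with the log2 of this sum, and 0.65 after each mouse's mean was removed. Cxcl2 had 0.71 and 0.20. Cxcl1 had −0.13 and −0.07, Cxcl5 −0.28 and 0.16, Cxcl12 0.09 and 0.12, and Cxcl14 −0.23 and 0.42. Other marker sums, though low, also went with these genes after each mouse's mean was removed. Cxcl2 had 0.54 with the neutrophil sum and 0.55 with the endothelium sum, and Cxcl16 had 0.53 and 0.37. Lyz2 alone was at 1224 FPKM in the library where the macrophage sum was 1643. Libraries of a mouse share its cells, so these are descriptions over 6 mice and 18 libraries, and the part of macrophage RNA in the levels of Cxcl16 and Cxcl2 was not tested. In bulk RNA, fewer cells of a type and less RNA per cell cannot be told apart.

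**Figure D4:**
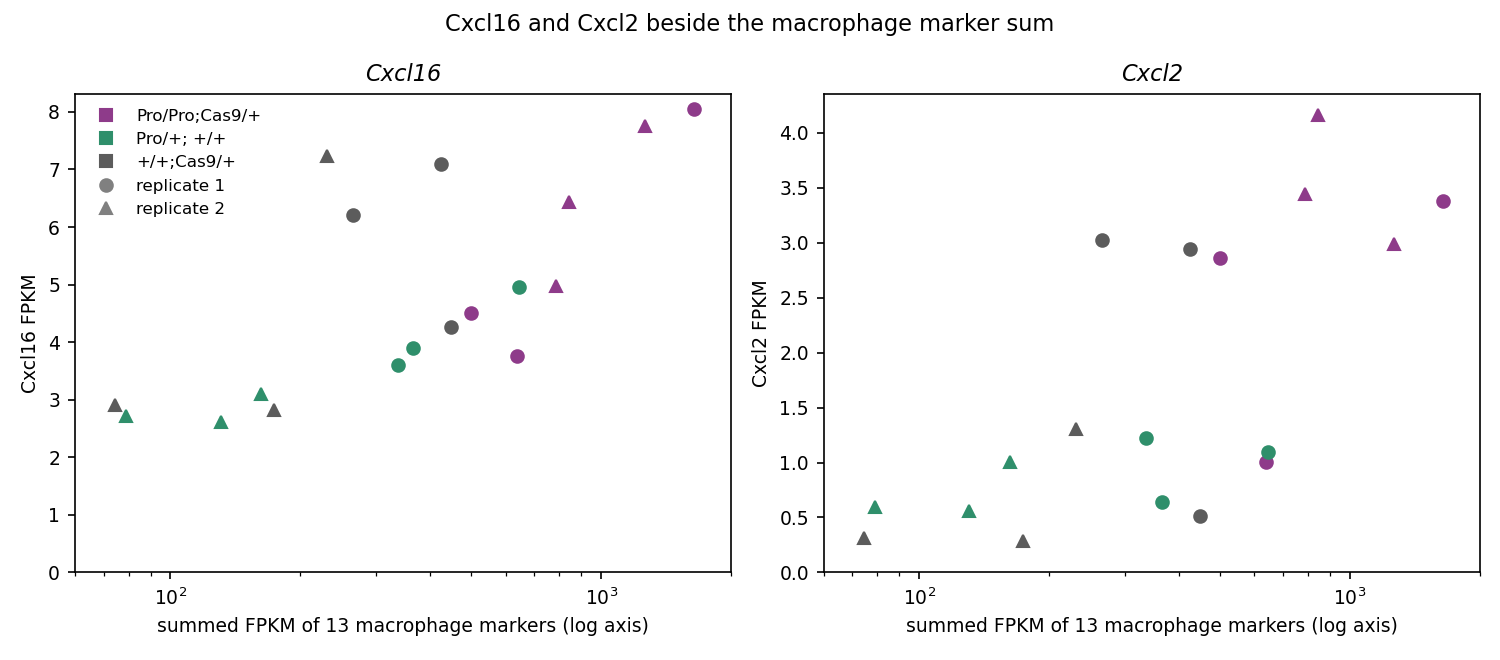
FPKM of Cxcl16 (left) and Cxcl2 (right) against the summed FPKM of 13 macrophage markers (log axis), 1 point per library, coloured by genotype and shaped by mouse. The library with the highest sum, 1643 FPKM, also had the highest Cxcl16, 8.05 FPKM.

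The genotypes were compared under gMock, where no Lmna guide was present. Cxcl5 was at 249 and 428 FPKM in Pro/+; +/+ cells and at 45.0 and 52.9 FPKM in +/+;Cas9/+ cells, a log2 difference of 2.72 (SE 0.29, adjusted p = 0.0289), and 0.413% of all genes passed. Both heterozygous mice were far above both wild-type mice. This was 1 of 6 genes, and its call was lost with the 3 treatments averaged per mouse (1.94, adjusted p = 0.0642), without a filter (0.156) and without any 1 of the 4 gMock libraries (0.114 to 0.287). The muscle gene Acta1 was at 11.3 and 10.1 FPKM in Pro/+; +/+ cells and at 53.2 and 38.6 FPKM in +/+;Cas9/+ cells in the same comparison (log2 difference −1.99, SE 0.17, adjusted p = 0.0289). The Acta1 call was lost in 5 of 10 alternatives. Over the 18 libraries Cxcl5 had a Pearson r of −0.78 with the summed skeletal muscle markers, and −0.58 after each mouse's mean was removed. That sum was mostly Acta1, at 6.42 to 65.35 FPKM, with Des at most 1.62 FPKM. Myog, at most 0.127 FPKM, was highest in Pro/+; +/+ replicate 2 with gMock. The part of these markers in the Cxcl5 difference was not tested. Cxcl1 was at 122 and 96.9 FPKM in Pro/+; +/+ cells and at 68.0 and 24.1 FPKM in +/+;Cas9/+ cells, a difference of 1.40 (SE 0.46, adjusted p = 0.318).

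In Pro/Pro;Cas9/+ against Pro/+; +/+ cells under gMock, Cxcl5 was at 72.5 and 53.5 FPKM against 249 and 428 FPKM, a log2 difference of −2.37 (SE 0.28, adjusted p = 0.739). Cxcl1 was at 21.8 and 27.8 FPKM against 122 and 96.9 FPKM, a difference of −2.10 (SE 0.46, adjusted p = 0.971). Neither gene passed, and 0% of all genes passed in this comparison. By limma 0 of 6 members passed, 2 at an unadjusted p under 0.05 (beside 4.34% of all genes) and 0 by voom. Against +/+;Cas9/+ cells, Pro/Pro;Cas9/+ cells had differences of 0.35 (SE 0.28, adjusted p = 0.898) for Cxcl5 and −0.70 (SE 0.46, adjusted p = 0.79) for Cxcl1. There 0 of 6 members passed, 0 at an unadjusted p under 0.05 (beside 10.4% of all genes) and 0 by voom, beside 0.397% of all genes. The comparisons share their gMock libraries.

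The heterozygous cells without Cas9 therefore held the highest Cxcl5 under gMock, and Pro/Pro;Cas9/+ cells with gLmna-1 stood within the range of the heterozygous libraries (161 to 428 FPKM). The summed level of Cxcl1, Cxcl2 and Cxcl5 was 262 to 526 FPKM in the 6 Pro/+; +/+ libraries and 77.3 to 241 FPKM in the 6 +/+;Cas9/+ libraries. In Pro/Pro;Cas9/+ cells it was 308 and 413 with gLmna-1, 87.3 and 48.8 with gLmna-2 and 95.3 and 84.8 with gMock. As a share of the sum of these 3 with Cxcl12 and Cxcl14, the neutrophil chemokines made up 27.0% to 46.8% in Pro/+; +/+ cells and from 13% to 24.8% in +/+;Cas9/+ cells. In Pro/Pro;Cas9/+ cells the share was 29.3% and 42.2% with gLmna-1, 10.7% and 22.2% with gLmna-2 and 12.3% and 36.3% with gMock. The mice differed about as much as the guides here: under gMock, Cxcl12 and Cxcl14 summed to 677 FPKM in replicate 1 and to 149 FPKM in replicate 2.

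Over the 18 libraries, the levels of Cxcl1 and Cxcl5 had a Pearson r of 0.71 on the log2 scale, and 0.87 after each mouse's mean was removed. With Cxcl12 the values after removal were 0.76 for Cxcl1 and 0.84 for Cxcl5. Cxcl2 had 0.28 with Cxcl1 and −0.07 with Cxcl5, and 0.72 with Cxcl16. Among the members, Cxcl2 thus went more with Cxcl16 than with Cxcl1 and Cxcl5, which share its receptor and chromosome. Cxcl3 and Ppbp, from the same run of genes, were not compared with Cxcl2. It had only 10 to 114 reads per library, and whether these low counts weakened its relations was not tested. The libraries of a mouse are not independent, and the gLmna-1 libraries of Pro/Pro;Cas9/+ cells lie at the high end of the first 3 relations.

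Among 10081 genes with a mean of at least 2 FPKM, those most like Cxcl1 in level were Irak3 (0.87), Fgf7 (0.86) and Emc2 (0.86), and after removal of the mouse mean Ugp2 (0.96), Ccl20 (0.94) and Dhrs7 (0.94). For Cxcl5 they were Tmem176a (0.96), Tmem176b (0.96) and Nek6 (0.95), and then Ptx3 (0.96), Nek6 (0.95) and Serpina3g (0.95). For Cxcl12, Ccn5 led both rankings (0.90 and 0.96), followed by Fas and Fst in level and by Sytl2 and Calr after removal. For Cxcl14 the leaders were Gstt1 (0.89) and, after removal, Aldh1l1 (0.94). For Cxcl16 they were Creg1 (0.88) and Selenop (0.94), and for Cxcl2 Pla2g7 (0.88) and Npc2 (0.92). Irak3 restrains interleukin 1 receptor signalling, Ccl20 is a chemokine and Ptx3 is a soluble pattern recognition protein.

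The other ligands of the chromosome 5 run were read beside the members. Ppbp, the precursor of a platelet chemokine that also acts on Cxcr2, was at 15.02 to 264 FPKM (median 109) and so stood with Cxcl5 and Cxcl1. Pf4 was at 0.229 to 3.77 FPKM, Cxcl3 at 0.988 to 7.26 and Cxcl15 at 0.453 to 7.64. Under gMock Ppbp was at 264 and 123.5 FPKM in Pro/Pro;Cas9/+, at 181 and 132 in Pro/+; +/+ and at 25.7 and 93.3 FPKM in +/+;Cas9/+ cells. With gLmna-1 in Pro/Pro;Cas9/+ cells it was at 169 and 165 FPKM, a log2 change of −0.12 (SE 0.33, adjusted p = 0.906), so it did not follow Cxcl1 and Cxcl5 there.

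Cxcl15 was at 7.64 and 3.91 FPKM with gLmna-1, at 2.60 and 0.474 with gLmna-2 and at 4.64 and 0.453 with gMock in Pro/Pro;Cas9/+ cells. It rose with gLmna-1 by 1.19 on the log2 scale (SE 0.22, adjusted p = 0.0465), a call that voom did not make and that was lost in 9 of 13 alternatives (adjusted p up to 0.605). Cxcl3 was at 3.33 and 7.26 FPKM with gLmna-1 and at 3.64 and 6.08 with gMock, and did not pass (log2 change 0.06, SE 0.32, adjusted p = 0.954). Of 9 other CXC ligands 5 were tested. With gLmna-1 in these cells, where 0.976% of all genes passed, 1 rose and 0 fell, with a median log2 change of 0.06 beside −0.03 over all genes. Cxcl9, Cxcl11 and Cxcl17 stayed under 0.24 FPKM in every library and Cxcl13 was listed at 0.

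**Figure D5:**
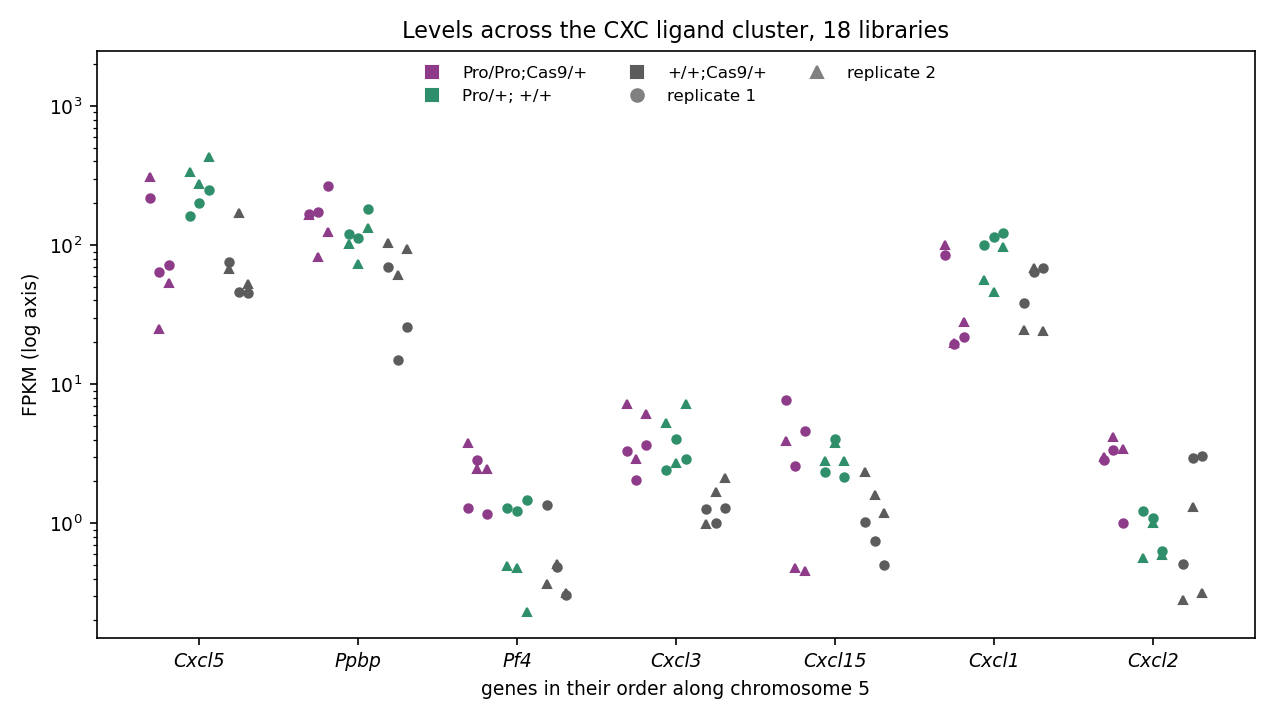
FPKM (log axis) of the 7 CXC ligand genes in their order along chromosome 5 in each of 18 libraries, coloured by genotype and shaped by mouse, with gLmna-1, gLmna-2 and gMock side by side within a genotype. Cxcl5, Ppbp and Cxcl1 lie between 15.02 and 428 FPKM, and Pf4, Cxcl3, Cxcl15 and Cxcl2 between 0.229 and 7.64 FPKM.

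Cxcl10, a ligand of Cxcr3 that interferons induce, fell with both guides in +/+;Cas9/+ cells. It was at 0.566 and 1.02 FPKM with gLmna-1, at 1.51 and 0.544 with gLmna-2 and at 12.96 and 8.31 with gMock. The log2 changes were −2.68 (SE 0.34, adjusted p = 0.0116) and −2.53 (SE 0.34, adjusted p = 0.0179), on the same gMock libraries, and voom called both. Without either of those gMock libraries both calls were lost. Of 13 alternatives, 4 lost the gLmna-1 call and 7 lost the gLmna-2 call. A pseudocount of 0.1 and no filter on low values were among those 7. Cxcl10 in these cells was chosen after values had been seen. In Pro/Pro;Cas9/+ cells it was at 1.29 and 1.29 FPKM with gLmna-1, at 1.75 and 0.919 with gLmna-2 and at 2.04 and 3.63 with gMock, and did not pass.

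Of 8 receptors, Cxcr1, Cxcr2, Cxcr3, Cxcr5 and Ackr1 stayed under 0.42 FPKM in all libraries, so the cultures showed almost no message for the receptor of their own neutrophil chemokines. Ackr3, the Cxcl12 scavenger, was the most abundant at 10.2 to 47.99 FPKM. In Pro/Pro;Cas9/+ cells Ackr3 was at 37.2 and 21.3 FPKM with gLmna-1, at 13.4 and 10.5 with gLmna-2 and at 22.0 and 10.2 with gMock, a log2 change with gLmna-1 of 0.86 (SE 0.17, adjusted p = 0.0514). Cxcr6, the Cxcl16 receptor, was at 2.20 and 1.09 FPKM with gLmna-2, against 0.434 and 0.277 with gMock, a log2 change of 0.93 (SE 0.16, adjusted p = 0.0574). Cxcr4 was at 0.17 to 4.53 FPKM. By limma none of the 3 tested receptors passed for either guide in these cells, with 1 for gLmna-1 and 2 for gLmna-2 at an unadjusted p under 0.05 (beside 2265 and 1272 of all 12599 genes), and voom called 1 with each guide.

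The genes that turn on neutrophil chemokines were counted from lists written by function. Of 14 inducers and their receptors 12 were tested. With gLmna-1 in Pro/Pro;Cas9/+ cells, where 0.976% of all genes passed, 1 rose and 0 fell, with a median log2 change of 0.11. The 1 was Il17rc, a subunit of the interleukin 17 receptor, at 21.6 and 17.8 FPKM with gLmna-1, against 16.0 and 11.2 with gMock (log2 change 0.52, SE 0.09, adjusted p = 0.039). Il1r1, the interleukin 1 receptor, was at 12.01 and 11.1 FPKM with gLmna-1, against 8.48 and 4.16 with gMock (0.84, SE 0.21, adjusted p = 0.090). Tnfrsf1a, a receptor of tumour necrosis factor, was at 160.5 and 149.9 FPKM against 133 and 109 FPKM (0.36, SE 0.07, adjusted p = 0.0534). Il1a and Il1b stayed under 0.6 FPKM in every library. Tnf was at 1.38 and 2.89 FPKM with gLmna-1, at 4.01 and 1.89 with gLmna-2 and at 1.67 and 1.83 with gMock in Pro/Pro;Cas9/+ cells. In the other genotypes Tnf lay between 0.116 and 1.03 FPKM.

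Of 12 NF-kB subunits and feedback genes all were tested and none passed for either guide in Pro/Pro;Cas9/+ cells, with medians of 0.11 for gLmna-1 and 0.05 for gLmna-2. For gLmna-1, 1 of the 12 had an unadjusted p under 0.05, for gLmna-2 none had, and voom called none. Nfkb1, the p105 and p50 subunit, was at 13.7 and 13.6 FPKM with gLmna-1, against 11.8 and 10.8 with gMock (0.26, SE 0.10, adjusted p = 0.22). The feedback genes Nfkbia (48.3 and 29.2 FPKM against 13.05 and 52.9) and Tnfaip3 (4.25 and 2.98 against 2.82 and 7.98) moved in opposite directions in replicates 1 and 2. Of 7 factors of chemokine message decay none passed, with Zfp36l1 at 0.54 (SE 0.16, adjusted p = 0.138) for gLmna-1, and of 4 tested processing proteases none passed. At an unadjusted p under 0.05 there were 1 and 2 in these lists for gLmna-1 and none for gLmna-2. Voom called none in them. Of all 12599 genes, 2265 for gLmna-1 and 1272 for gLmna-2 had an unadjusted p under 0.05 in these cells. The shares of all genes that passed were 0.976% and 0.357%.

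Of 13 other secreted or surface products of NF-kB, 11 were tested. With gLmna-1 in Pro/Pro;Cas9/+ cells, where 0.976% of all genes passed, 2 rose and 0 fell, with a median log2 change of 0.99. Ccl2, which draws monocytes, was at 469.7 and 651 FPKM with gLmna-1, at 213 and 236 with gLmna-2 and at 220.1 and 260.2 with gMock (log2 change with gLmna-1 1.21, SE 0.23, adjusted p = 0.0465). Vcam1, an adhesion molecule for leukocytes, was at 58.6 and 50.3 FPKM with gLmna-1, at 40.8 and 25.1 with gLmna-2 and at 38.4 and 18.7 with gMock (0.99, SE 0.18, adjusted p = 0.0465). Ccl20 was at 10.9 and 31.6 FPKM with gLmna-1, against 1.66 and 9.41 with gMock (1.91, SE 0.44, adjusted p = 0.0752), and Ccl7 at 479 and 662 against 277 and 235 (1.14, SE 0.25, adjusted p = 0.0632). Other genes of this list were lower with gLmna-1 in both mice: Ptgs2 (84.0 and 83.7 FPKM against 112.8 and 175.8), Csf1 (412.4 and 409.8 against 451.3 and 573.5) and Icam1 (7.72 and 6.22 against 10.05 and 7.19). With gLmna-2 none of the 11 passed by limma (beside 0.357% of all genes) and none had an unadjusted p under 0.05 (beside 10.1%). Voom called none with that guide, and the median was 0.04. The calls of Il17rc, Ccl2 and Vcam1 were lost in 7, 9 and 8 of 13 alternatives, among them no replicate block and leaving out any 1 of the replicate 2 libraries (adjusted p up to 0.595).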

How the data were processed

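RNA-seq of 18 fibroblast libraries was analysed. Per the submitters' processing notes, FastQC 0.11.2, STAR 2.4.0k, HOMER and the mm10 build were used. Per the file headers, the authors computed FPKM for 404759 exon parts of 36795 transcripts, and the deposited table also holds the length of each part. Of its 24 library columns 6 matched no labelled sample and were not used. Parts were summed to transcripts, and the transcript with the highest mean FPKM stood for a symbol. Reads were recovered from the FPKM steps (100% of values whole within 0.05 of a read in the lowest library).

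Tests used limma 3.58.1 (R 4.3.3) with a trended variance on log2(FPKM + 1) for genes that reached 1 FPKM in 2 or more libraries. Fold changes on that scale understate the change of low genes. Guide contrasts and their differences were fitted on all 18 libraries with mouse as a fixed block (6 residual degrees of freedom), and genotypes on the 6 gMock libraries (3 residual degrees of freedom). P-values were adjusted by Benjamini-Hochberg over all 12599 genes, with a threshold of 0.05. The labels name the mouse of each library. Deviations of libraries of the same mouse correlated at −0.02 to 0.78 in Pro/Pro;Cas9/+, 0.47 to 0.73 in Pro/+; +/+ and 0.18 to 0.59 in +/+;Cas9/+ cells. The fit was run on simulated data with known changes and independent noise. Those data held no mouse effects, so that run does not check the mouse block. Alternatives were another pseudocount, no filter, quantile normalization, the mean over transcripts, limma voom on recovered reads, leaving out each library, no block, the genotype's own libraries and mouse means.

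The named genes were the 6 members in every group, for each member the 3 genes with the highest Pearson r on levels and after removal of mouse means, and up to 4 genes of each list with the smallest p for a guide in Pro/Pro;Cas9/+ cells; other CXC ligands and receptors were named with their values. Cxcl10 in +/+;Cas9/+ cells and the Cxcl12 ends, promoter motifs and AUUUA counts were chosen after values had been seen. The members and lists were chosen with earlier results of these data known. Promoters are from RefSeq (GRCm38.p6), and 3′ untranslated regions and exon overlaps from GENCODE M21. The figures were drawn with matplotlib and the tables made with Python.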

Additional observations from a re-analysis of the deposited data

Results flagged for a closer look

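The following differences are listed because both mice of one genotype moved one way and both mice of another the opposite way under the same contrast. None of these differences was tested, and the share of all genes with such a pattern is not given. Some of the changes were small, such as 0.04 for Cxcl5 and −0.03 for Cxcl14 in 1 mouse each. Values are differences of mean log2 changes.

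For gLmna-2 against gLmna-1, Cxcl1 differed by −3.26 between Pro/Pro;Cas9/+ cells (−2.08 and −2.28 in replicates 1 and 2) and +/+;Cas9/+ cells (0.72 and 1.43). Cxcl12 differed by −2.24 between Pro/Pro;Cas9/+ cells (−1.25 and −2.64) and Pro/+; +/+ cells (0.10 and 0.49), and by −2.56 from +/+;Cas9/+ cells (0.31 and 0.94). These 3 use the contrast that was known when the genes were chosen.

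Against gMock, Cxcl5 differed between Pro/+; +/+ and +/+;Cas9/+ cells by −1.02 with gLmna-1 (−0.63 and −0.34 against 0.73 and 0.35) and by −1.32 with gLmna-2 (−0.30 and −0.63 against 0.04 and 1.68). Cxcl14 differed between the same genotypes by −0.71 with gLmna-1 (−0.03 and −0.45 against 0.56 and 0.38). Groups of 2 mice are too small to look for single outlying libraries.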

How the results depend on the processing

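The count of chemokines past the threshold for gLmna-1 against gMock in Pro/Pro;Cas9/+ cells was 1, and it was 0 without a filter on low values, 0 with the 6 libraries of that genotype alone and 0 without the replicate block; with 1 library left out it ranged from 0 to 4. The block changed no other count of members. For the difference of the gLmna-1 effect, leaving out a library gave 0 to 4 members against Pro/+; +/+ cells and 0 to 1 against +/+;Cas9/+ cells. For Pro/+; +/+ against +/+;Cas9/+ cells under gMock the count was 1, and it was 0 without a filter, 0 with mouse means over treatments and 0 to 0 with 1 library left out. A pseudocount of 0.1, quantile normalization, the mean over transcripts and voom moved no count of members. Without gLmna-1 of replicate 2, the untested log2 difference of Cxcl2 between gLmna-2 and gLmna-1 in Pro/Pro;Cas9/+ cells was −0.047 in place of 0.28, with 1 mouse left for that guide; over the libraries left out it ranged from −0.047 to 0.602.

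The number of all genes past the threshold depended far more on single libraries. For gLmna-1 against gMock in Pro/Pro;Cas9/+ cells it was 123, with 220 by voom, 6 without a filter, 0 without the block and 0 to 1773 with 1 library left out. The cause of these shifts was not tested, other than that no filter raises the number of genes tested. With 2 mice per group, the lone mouse left in such a fit is assumed to vary like the others. Cxcl2 (10 to 114 reads) and the gamma end of Cxcl12 (1 to 39 reads) are limited by depth.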
